A study of Homo sapiens with 9 samples.

Results

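The mitosis genes are 35 genes that a dividing cell uses to condense its chromosomes, build the spindle, hold the checkpoint, separate the chromatids and cut the cell apart. They were chosen by name from what each protein is known to do, by a rule that uses no measured value. Earlier results of these data were known when the list was chosen. Each gene was read from the transcript cluster that carries its symbol. All 35 had a cluster, of 17687 named genes and 21448 clusters on the array. The cells were ACC-MESO-1, an established human cell line from pleural mesothelioma, a cancer of the membrane around the lungs. They carried a control shRNA, or a hairpin RNA against LSD1 named shLSD1 #1 or shLSD1 #2, with 3 Clariom S arrays in each of these 3 groups. LSD1 removes methyl groups from histones as part of complexes that repress transcription. The control arrays are replicates 1 to 3, the shLSD1 #1 arrays replicates 4 to 6 and the shLSD1 #2 arrays replicates 7 to 9. All arrays come from 1 cell line, and both hairpins are set against the same 3 control arrays. Whether the replicates of a group came from separate cultures is not stated in the labels. The p-values set differences between groups against the spread of arrays within a group, and that spread may be only technical. How strongly the hairpins lowered LSD1 was not checked, because its transcript is not analysed here.

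Cells enter mitosis when the kinase CDK1, bound to cyclin B, becomes active. The spindle checkpoint then holds the anaphase-promoting complex until every kinetochore is attached to the spindle, and that complex with CDC20 marks securin and cyclin B for destruction so that the chromatids part. Many of these genes are transcribed mostly in late S phase, G2 and mitosis, under B-MYB and FOXM1 on the MuvB complex, and they are silenced in resting cells by the DREAM complex. In RNA from a whole culture, more cells in G2 or mitosis and more transcript in each such cell cannot be told apart.

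All 35 mitosis genes lay above background on all 9 arrays, meaning above the 95th percentile of the array's negative control probe sets, with log2 signals from 9.78 to 15.73. The scanner ceiling is 16 on this scale, and whether it narrowed changes of the brightest genes was not tested. Array medians over all clusters lay between 6.39 and 6.43. Of 8 mesothelial markers, MSLN, KRT8 and KRT18 were above background on all 9 arrays, and CALB2, which encodes calretinin, was below it on all 9. WT1 and UPK3B were below it on the 3 control arrays. PDPN and KRT19 were above it on some of the 9 arrays and not on others. Of 6 blood and endothelial markers, PTPRC, CD3E, PECAM1, CDH5 and VWF were below it on all 9 arrays and CD68, a lysosomal gene that is not confined to macrophages, was above it on all 9. With each hairpin, 2 of the 8 mesothelial markers rose (25.0%, against 7.85% and 6.56% of all clusters). MSLN fell (12.5%, against 7.94% and 6.63%). Of the 6 other markers CD68 fell (16.7%), with log2 changes of -1.11 and -1.35. The part of these markers in the results was not tested. The signal of 4 hybridization spike-in probe sets differed between arrays. Its mean was 11.30 to 11.38 on the control arrays, 10.80 to 10.84 on the shLSD1 #1 arrays, and 11.33, 10.93 and 11.18 on shLSD1 #2 replicates 7, 8 and 9. The largest gap, 0.249, parted the 3 shLSD1 #1 arrays and shLSD1 #2 replicate 8 from the others, so a low spike-in signal goes with shLSD1 #1.

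With shLSD1 #1, 8 of the 35 mitosis genes rose and 1 fell, and with shLSD1 #2, 4 rose and none fell. The 8 were the cyclin CCNB2, the proliferation antigen MKI67, the kinetochore genes CENPF and NUF2, the transcription factor FOXM1, the spindle motor KIF11, the cytokinesis gene ANLN and the anaphase activator CDC20, and the 1 that fell was the centromeric histone gene CENPA. CCNB2, ANLN and CDC20 also rose with shLSD1 #2, together with the securin gene PTTG1. No mitosis gene changed by 2-fold or more, and the highest ratio was 1.79-fold. A rise or fall here means an adjusted p under 0.05 by limma, Benjamini-Hochberg over 21448 clusters. With shLSD1 #2 no gene was called lower, and 3 were lower at an unadjusted p under 0.05, a count for which no background was computed.

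All 35 genes are bright, so their shares are read against bright clusters as well as against all clusters. With shLSD1 #1, 22.9% of the mitosis genes rose and 2.86% fell, against 7.85% and 7.94% of all clusters. Among the 4853 clusters at least as bright as the dimmest mitosis gene, 15.8% rose and 15.9% fell. With shLSD1 #2, 11.4% of the mitosis genes rose, against 6.56% of all clusters and 13.8% of the bright ones, so that share was near the background. For falls with shLSD1 #2 the background was 6.63% and 13.1%. For the mean of both hairpins, 10 mitosis genes rose (28.6%, against 9.25% and 18.5%) and 2 fell (5.71%, against 8.98% and 17.1%). The 10 were those named above with PTTG1 and KIF23, and the 2 were CENPA and BUB3. Over 17 fits of that mean, this one and the alternatives below, BUB3 passed in 8 and NUF2 and KIF23 in 9. CENPA passed in 12, FOXM1 in 13 and the others in 14 to 17.

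The shift over the list was small and mostly upward. The median log2 change of the 35 genes was 0.20 with shLSD1 #1 and 0.17 with shLSD1 #2, where the median over all clusters was 0.030 and 0.022. The change was above 0 for 26 mitosis genes (74.3%) with shLSD1 #1 and for 28 (80.0%) with shLSD1 #2, against 53.3% and 52.9% of all clusters. For 15 mitosis genes (42.9%) all 6 hairpin arrays lay above all 3 control arrays, where 11.6% of all clusters and 25.1% of the bright ones did so. For BUB3, CENPA and UBE2C (8.57%) all 6 lay below, where 11.3% and 23.8% did so. The remaining 17 genes overlapped the control arrays.

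**Figure D1:**
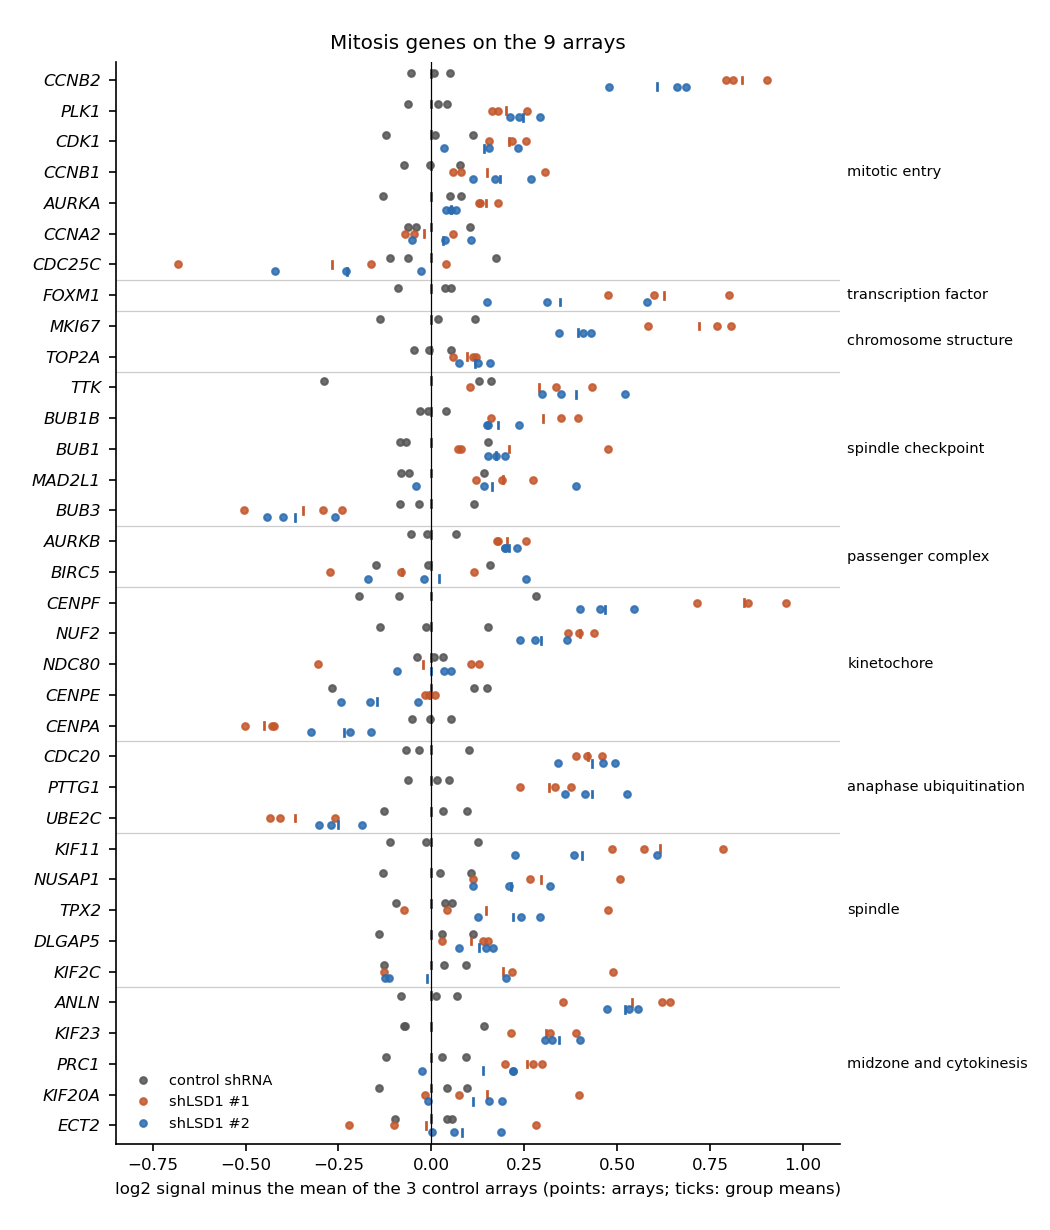
Log2 signal of each of the 35 mitosis genes on the 9 arrays, minus the mean of its 3 control arrays, with genes grouped by role. Points are arrays and ticks are group means. CCNB2, CENPF and MKI67 lie farthest to the right, and BUB3, CENPA and UBE2C have all 6 hairpin arrays left of the control arrays.

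Single arrays showed the shift to different degrees. On shLSD1 #1 replicates 4, 5 and 6, 23, 28 and 19 mitosis genes lay above all 3 control arrays, and 6, 3 and 8 lay below. On shLSD1 #2 replicates 7, 8 and 9, 21, 24 and 28 lay above, and 5, 4 and 4 lay below. The share of all clusters beyond the control arrays was not computed for single arrays, so these counts have no background. The median deviation from the control mean was 0.19, 0.28 and 0.11 on the shLSD1 #1 arrays and 0.17, 0.15 and 0.22 on the shLSD1 #2 arrays. On the control arrays it was 0.02, -0.01 and 0.02. The control mean comes from these same 3 arrays, so small deviations there are built in and give no spread for comparison. The median deviation was upward on all 6 hairpin arrays, least on replicate 6. The median deviation of replicate 8, the shLSD1 #2 array of low spike-in signal, was below those of replicates 7 and 9. Its mean deviation, 0.16, lay between those of replicates 7 (0.14) and 9 (0.20), as did its number of genes above control. The place of this 1 array thus depends on the measure.

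**Figure D2:**
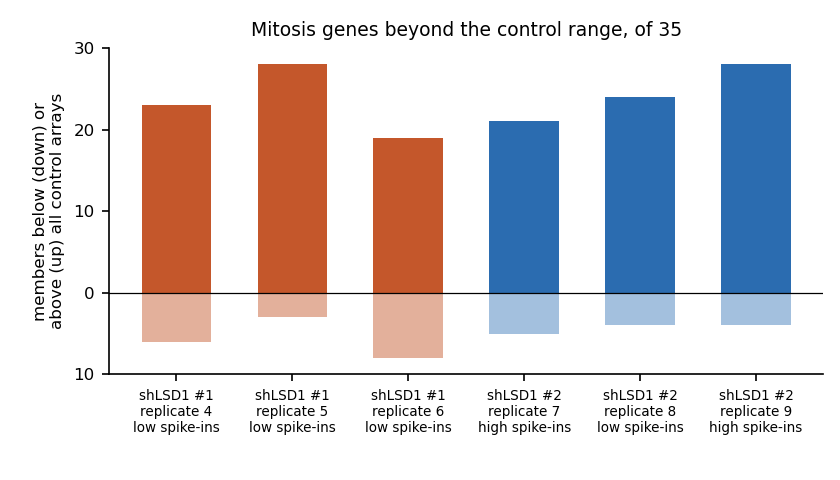
Number of the 35 mitosis genes above (up) or below (down, paler) all 3 control arrays, for each hairpin array, with its class of spike-in signal. Between 19 and 28 genes lay above on each array, and between 3 and 8 below. No share over all clusters was computed for single arrays.

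The calls depended on the arrays and on the spike-in class. With the class as a block, none of the 9 calls with shLSD1 #1 passed (adjusted p from 0.112 to 0.580), while the log2 changes were 0.72 for CCNB2, 0.80 for MKI67, 0.86 for CENPF, 0.92 for FOXM1, 0.65 for KIF11, 0.61 for ANLN, 0.56 for CDC20, 0.29 for NUF2 and -0.56 for CENPA. The shLSD1 #1 arrays are all of the low class and the control arrays all of the high class, so that block takes the class effect from the shLSD1 #2 arrays alone. For shLSD1 #2 the same block ended only the call of PTTG1 (adjusted p = 0.0836). There the block gives the same calls as leaving out shLSD1 #2 replicate 8, so it is not a separate check on the class. A fit restricted to the high class, which leaves 2 arrays of shLSD1 #2, ended all 4 of its calls (adjusted p from 0.0555 to 0.126). For shLSD1 #1 the hairpin and the spike-in class cannot be told apart. The number of rises with shLSD1 #1 was 5 without control replicate 1, and the fall was lost without control replicate 2. With shLSD1 #2 the number of rises was 2 without control replicate 1, 1 without control replicate 2 and 1 without shLSD1 #2 replicate 7. For the mean of both hairpins 5 rose without control replicate 2, 6 without control replicate 3, and only CCNB2 with the block. A trended robust prior gave 14 rises and 3 falls with shLSD1 #1, and 12 rises and 1 fall with shLSD1 #2.

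The genes of mitotic entry comprise cyclins, their kinase and the kinases and phosphatase that switch it on. Of these 7, CCNB2 alone rose, with both hairpins. CCNB2 encodes cyclin B2, a partner of CDK1. Its log2 signal was 11.15, 11.10 and 11.04 on the control arrays, 12.0003, 11.89 and 11.91 on the shLSD1 #1 arrays and 11.76, 11.78 and 11.57 on the shLSD1 #2 arrays. Every hairpin array lay above every control array. The log2 change was 0.84 ± 0.108 (SE, n = 3 arrays a group) with shLSD1 #1 (limma adjusted p = 0.000829, 1.79-fold) and 0.61 with shLSD1 #2 (limma adjusted p = 0.0052, 1.52-fold). Both calls passed without any single array.

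CCNB1, which encodes cyclin B1, did not pass. Its signal was 13.92, 13.84 and 13.77 on the control arrays, 13.91, 14.15 and 13.92 with shLSD1 #1 and 14.02, 13.96 and 14.11 with shLSD1 #2. The shLSD1 #1 arrays overlapped the control arrays, and the log2 changes were 0.15 ± 0.115 (limma adjusted p = 0.441) and 0.18 (0.368). CDK1, the kinase itself, read 12.33, 12.46 and 12.56 in control, 12.71, 12.61 and 12.67 with shLSD1 #1 and 12.49, 12.69 and 12.61 with shLSD1 #2. The lowest shLSD1 #2 array fell within the control range, and the log2 changes were 0.21 (limma adjusted p = 0.258) and 0.14 (0.495).

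PLK1, a kinase that acts from entry to cytokinesis, read 15.27, 15.37 and 15.35 in control, 15.51, 15.58 and 15.49 with shLSD1 #1 and 15.56, 15.54 and 15.62 with shLSD1 #2. All 6 hairpin arrays lay above control, by 0.20 and 0.25 on the log2 scale, yet neither change passed (limma adjusted p = 0.221 and 0.15). AURKA, which activates PLK1 and organises the spindle poles, read 14.06, 13.88 and 14.09 in control, 14.14, 14.15 and 14.19 with shLSD1 #1 and 14.07, 14.05 and 14.08 with shLSD1 #2. The shLSD1 #2 arrays lay inside the control range. CCNA2, the cyclin A2 gene, changed by -0.02 and 0.03, and CDC25C, the phosphatase that activates CDK1, by -0.27 and -0.23, and none of these passed (limma adjusted p of CDC25C 0.402 and 0.527).

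FOXM1, a transcription factor that drives many genes of G2 and mitosis, rose with shLSD1 #1. Its signal was 12.18, 12.32 and 12.30 in control, 12.87, 13.07 and 12.74 with shLSD1 #1 and 12.58, 12.42 and 12.85 with shLSD1 #2. All hairpin arrays lay above control, and the shLSD1 #2 arrays spread more than the control arrays. The log2 change was 0.63 ± 0.142 (limma adjusted p = 0.0154, 1.54-fold) with shLSD1 #1 and 0.35 (0.155) with shLSD1 #2. Without control replicate 1 the shLSD1 #1 call was lost (limma adjusted p = 0.0565).

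Of the genes of chromosome structure, MKI67 rose with shLSD1 #1 and TOP2A did not pass. MKI67 encodes Ki-67, which coats mitotic chromosomes and keeps them apart, and which serves as a marker of cycling cells. Its signal was 11.91, 11.65 and 11.81 in control, 12.60, 12.56 and 12.38 with shLSD1 #1 and 12.22, 12.14 and 12.20 with shLSD1 #2. The 3 groups did not overlap, with shLSD1 #2 between the others. The log2 change was 0.72 ± 0.116 (limma adjusted p = 0.00281, 1.65-fold) with shLSD1 #1, a call kept without any single array, and 0.39 (0.0544) with shLSD1 #2. TOP2A, the topoisomerase that untangles sister chromatids, read 13.06, 13.004 and 12.96 in control, 13.13, 13.07 and 13.12 with shLSD1 #1 and 13.08, 13.14 and 13.17 with shLSD1 #2. All 6 hairpin arrays lay just above control, by 0.10 (limma adjusted p = 0.57) and 0.12 (0.516).

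None of the 5 spindle checkpoint genes passed with either hairpin. BUB3, which brings the checkpoint kinases to kinetochores, was the 1 gene of the group below control. It read 13.76, 13.70 and 13.90 in control, 13.55, 13.28 and 13.50 with shLSD1 #1 and 13.39, 13.53 and 13.35 with shLSD1 #2. All 6 hairpin arrays lay below control, by -0.35 ± 0.12 (limma adjusted p = 0.0849) and -0.37 (0.08), and for the mean of both hairpins BUB3 fell by 0.36 (0.0415). That fall of the mean was lost without control replicate 1 (0.0978), 2 (0.0764) or 3 (0.158). It was also lost without shLSD1 #1 replicate 5 (0.0644) or 6 (0.0583) or shLSD1 #2 replicate 7 (0.0796) or 9 (0.0718), and after a repeated quantile normalization (0.0742). The kinases BUB1 (0.21 and 0.17), BUB1B (0.30 and 0.18) and TTK (0.29 and 0.39) and the anaphase inhibitor MAD2L1 (0.19 and 0.16) had log2 changes above 0 that did not pass.

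The chromosomal passenger complex corrects faulty attachments, with AURKB as its kinase. AURKB read 12.12, 12.16 and 12.24 in control, 12.43, 12.35 and 12.35 with shLSD1 #1 and 12.37, 12.40 and 12.37 with shLSD1 #2. All 6 hairpin arrays lay above control, by 0.20 (limma adjusted p = 0.21) and 0.21 (0.22), and neither change passed. BIRC5, the survivin gene of the same complex, had log2 changes of -0.08 and 0.02.

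The 5 kinetochore genes went in different directions with shLSD1 #1. CENPF, a large protein of the outer kinetochore that accumulates in G2, read 10.42, 10.32 and 10.79 in control, 11.22, 11.36 and 11.47 with shLSD1 #1 and 11.06, 10.96 and 10.91 with shLSD1 #2. It rose by 0.84 ± 0.143 (limma adjusted p = 0.0037, 1.79-fold) with shLSD1 #1, without loss when any single array was left out. With shLSD1 #2 its change was 0.47 (0.0622), and 0.0234 was the adjusted p without control replicate 3, the highest of its control arrays. NUF2, a subunit of the NDC80 complex that grips microtubules, read 11.07, 11.20 and 11.36 in control, 11.58, 11.65 and 11.61 with shLSD1 #1 and 11.49, 11.58 and 11.45 with shLSD1 #2. The hairpin arrays were all above control, by 0.40 ± 0.113 (limma adjusted p = 0.0396, 1.32-fold) and 0.29 (0.13). That call was lost without any 1 of the 9 arrays except control replicate 3, with adjusted p up to 0.1289 without control replicate 1, and in a fit of only the groups compared (0.0734).

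CENPA encodes the histone variant that marks the centromere. It read 10.56, 10.62 and 10.51 in control, 10.14, 10.06 and 10.14 with shLSD1 #1 and 10.24, 10.40 and 10.35 with shLSD1 #2. The 3 groups did not overlap, and the order was the reverse of that of MKI67. CENPA fell by 0.45 ± 0.102 on the log2 scale with shLSD1 #1 (limma adjusted p = 0.0155), and its change with shLSD1 #2 was -0.24 (0.181). Without control replicate 2 the call was lost (limma adjusted p = 0.0590). NDC80 (-0.02 and -0.00) and the motor CENPE (-0.00 and -0.15) did not pass.

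The anaphase group holds CDC20, PTTG1 and UBE2C. CDC20 activates the anaphase-promoting complex, and it rose with both hairpins. Its signal was 14.34, 14.37 and 14.51 in control, 14.79, 14.82 and 14.87 with shLSD1 #1 and 14.90, 14.75 and 14.87 with shLSD1 #2. All hairpin arrays lay above control, by 0.42 ± 0.105 (limma adjusted p = 0.024, 1.34-fold) and 0.43 (0.0248, 1.35-fold). The shLSD1 #1 call was lost without control replicate 1 (0.0815) or 2 (0.0770) or shLSD1 #1 replicate 4 (0.0555), 5 (0.0515) or 6 (0.0716). The shLSD1 #2 call was lost without control replicate 1 (0.0847) or 2 (0.0822) or shLSD1 #2 replicate 7 (0.0855) or 9 (0.0658), and in a fit of only the groups compared (0.0513).

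PTTG1 encodes securin, which blocks the protease that cuts cohesin. It read 13.71, 13.68 and 13.60 in control, 14.04, 13.90 and 13.995 with shLSD1 #1 and 14.08, 14.19 and 14.02 with shLSD1 #2. All hairpin arrays lay above control, by 0.32 ± 0.105 (limma adjusted p = 0.0738) and 0.43 (0.0244, 1.35-fold). The shLSD1 #2 call was lost without control replicate 1 (0.0558), 2 (0.0676) or 3 (0.0844) or shLSD1 #2 replicate 7 (0.0649) or 8 (0.0836). UBE2C, the ubiquitin-conjugating enzyme of the same complex, went the other way. It read 12.66, 12.50 and 12.73 in control, 12.37, 12.20 and 12.23 with shLSD1 #1 and 12.33, 12.45 and 12.36 with shLSD1 #2. The 6 hairpin arrays were below all control arrays, by -0.37 ± 0.112 (limma adjusted p = 0.0542) and -0.25 (0.189), and neither change passed.

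Of the 5 spindle genes, KIF11 rose with shLSD1 #1. KIF11 encodes the motor Eg5, which slides microtubules apart so that the spindle becomes bipolar. It read 10.99, 10.85 and 10.75 in control, 11.35, 11.65 and 11.44 with shLSD1 #1 and 11.09, 11.24 and 11.47 with shLSD1 #2. Each hairpin array was above each control array, by 0.61 ± 0.139 (limma adjusted p = 0.0151, 1.53-fold) and 0.41 (0.0928), and the shLSD1 #1 call was lost without control replicate 3 (0.0578). NUSAP1 (0.30 and 0.21) and TPX2 (0.15 and 0.22), which bundle and nucleate spindle microtubules, did not pass. Nor did DLGAP5 (0.11 and 0.13) or the microtubule-depolymerising kinesin KIF2C (0.19 and -0.01).

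Of the 5 genes of the spindle midzone and cytokinesis, ANLN rose with both hairpins. ANLN encodes anillin, the scaffold of the contractile ring. It read 15.16, 15.01 and 15.10 in control, 15.45, 15.73 and 15.71 with shLSD1 #1 and 15.65, 15.56 and 15.62 with shLSD1 #2. Hairpin and control arrays did not overlap, with rises of 0.54 ± 0.116 (limma adjusted p = 0.0121, 1.45-fold) and 0.52 (0.0166, 1.43-fold). The first call held without any single array, and the second was lost without control replicate 2 (0.0652) or shLSD1 #2 replicate 7 (0.0580).

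KIF23, a motor of the centralspindlin complex, read 12.83, 12.61 and 12.61 in control, 13.003, 13.07 and 12.90 with shLSD1 #1 and 12.99, 13.01 and 13.08 with shLSD1 #2. All hairpin arrays lay above control, by 0.31 ± 0.112 (limma adjusted p = 0.0959) and 0.34 (0.0775), and the mean of both hairpins passed at 0.33 (0.0438). That call was lost without control replicate 2 (0.158) or 3 (0.149), shLSD1 #1 replicate 4 (0.0764) or 5 (0.0716) or shLSD1 #2 replicate 7 (0.0694), 8 (0.0700) or 9 (0.0744). PRC1, which crosslinks midzone microtubules (0.26 and 0.14), KIF20A (0.15 and 0.11) and ECT2, which activates RhoA at the cleavage site (-0.01 and 0.08), did not pass.

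No mitosis gene differed between shLSD1 #1 and shLSD1 #2 by limma, with a smallest adjusted p among the 35 of 0.584. The background was 0.0%, since no cluster was called between the hairpins, while a trended robust prior called 33 clusters higher and 9 lower with shLSD1 #1, none of them a mitosis gene. An unadjusted p under 0.05 was reached by 2 of the 35, MKI67 and CENPF. The share of all clusters at that cut was not computed, so this count has no background and shows no difference. The log2 difference was 0.33 (95% interval 0.07 to 0.59, adjusted p = 0.584) for MKI67 and 0.37 (0.05 to 0.70, adjusted p = 0.593) for CENPF. For CCNB2 it was 0.23, with an interval from -0.01 to 0.47. The interval lay within 1 log2 unit of 0 for all 35 genes and within 0.5 for 30 of them, so that differences between the hairpins of up to those sizes are not excluded by these arrays. A call with shLSD1 #1 alone, as for MKI67, CENPF, FOXM1, KIF11, NUF2 and CENPA, is therefore not shown to be specific to that hairpin.

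**Figure D3:**
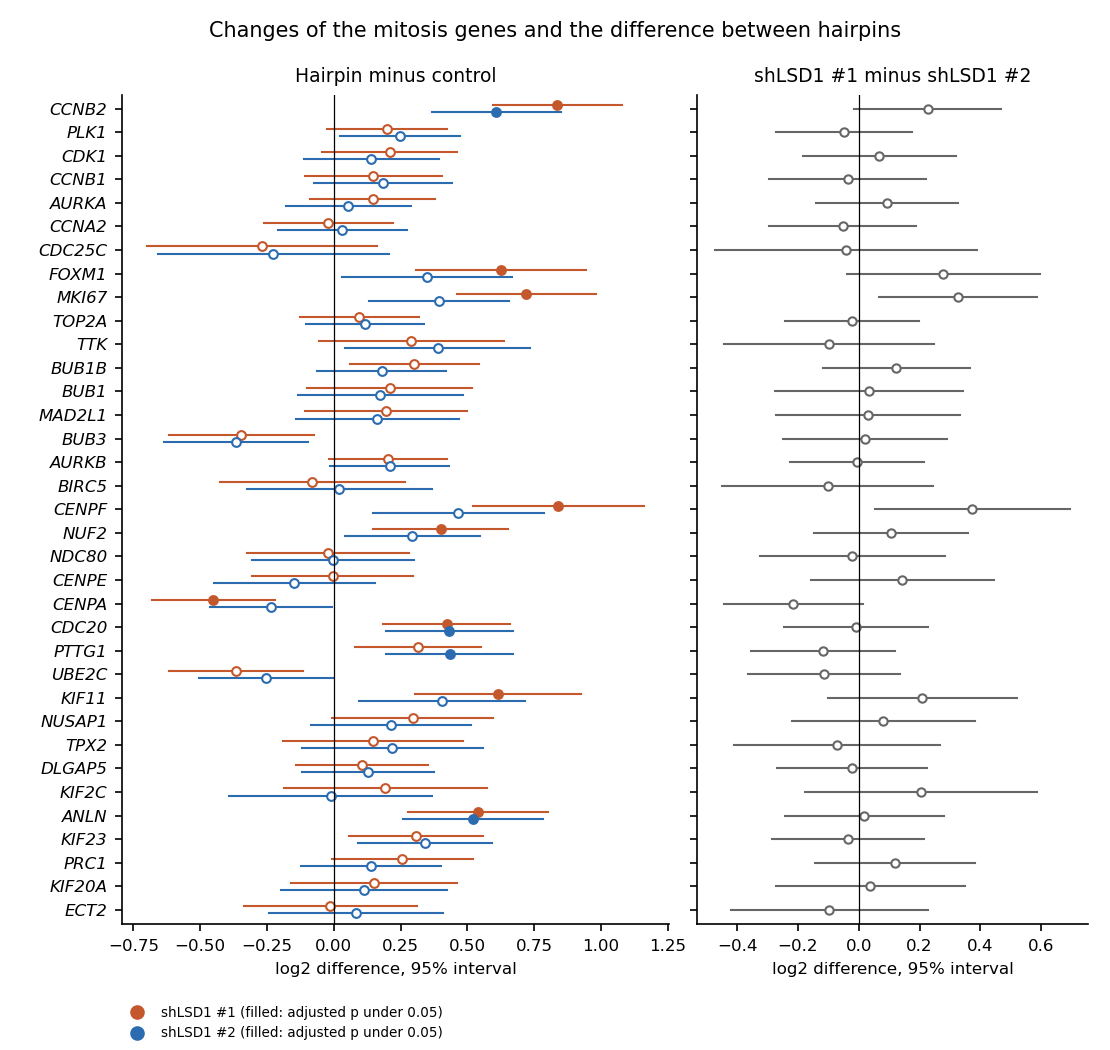
Log2 change of each mitosis gene with shLSD1 #1 and with shLSD1 #2 against control (left) and the difference between the hairpins (right), with 95% intervals from limma; filled points have an adjusted p under 0.05. On the left 9 points are filled for shLSD1 #1 and 4 for shLSD1 #2, and on the right none is.

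The promoters of these genes carry short words known from cell cycle regulation. The cell cycle genes homology region, or CHR, is the word TTTGAA or its variant TTCGAA, which the MuvB complex binds, and CCAAT is the word bound by NF-Y. RefSeq promoters (GRCh38.p14), from 250 bases before to 50 bases after the start, were held for 28 of the 35 genes. On either strand TTTGAA occurred in 19 of the 28 (67.9%), against 15.4% of 27305 promoters of the same length. TTTGAA or TTCGAA occurred in 20 (71.4%, against 16.6%), CCAAT in 21 (75.0%, against 35.7%), and a CHR word together with CCAAT in 16 (57.1%, against 6.58%). The E2F words TTTGGCGC and TTTCGCGC occurred in 2 (7.14%, against 1.18%). TTCGAA reads the same on both strands and was counted once. These are matches of letters, not measured sites.

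CHR words occurred in genes that changed in either direction and in genes that did not pass. A CHR word was in 8 of the 9 promoters of genes called higher with either hairpin or their mean, in the 1 of the gene called lower, CENPA, and in 11 of the 18 others, and the difference between these shares was not tested. The stretches below, from 150 bases before the start up to the start, are shown for the 3 genes that rose with both hairpins, for MKI67 and for CENPA, which fell. They are written 5′ to 3′ on the strand of the gene, and capitals mark CHR words and CCAAT on either strand, so that TTCAAA is TTTGAA and ATTGG is CCAAT read from the other strand.
CCNB2, chr15:59104996-59105145, plus strand: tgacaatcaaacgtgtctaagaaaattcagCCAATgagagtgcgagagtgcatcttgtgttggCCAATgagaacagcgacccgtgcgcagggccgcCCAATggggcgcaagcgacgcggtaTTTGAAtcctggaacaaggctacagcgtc
CDC20, chr1:43358831-43358980, plus strand: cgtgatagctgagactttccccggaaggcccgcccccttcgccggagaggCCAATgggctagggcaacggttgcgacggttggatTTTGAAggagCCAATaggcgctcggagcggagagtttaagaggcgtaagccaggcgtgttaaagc
ANLN, chr7:36389712-36389861, plus strand: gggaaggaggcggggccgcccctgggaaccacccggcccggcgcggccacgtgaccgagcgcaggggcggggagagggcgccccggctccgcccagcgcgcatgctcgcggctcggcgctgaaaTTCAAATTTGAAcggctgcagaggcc
MKI67, chr10:128126424-128126573, minus strand: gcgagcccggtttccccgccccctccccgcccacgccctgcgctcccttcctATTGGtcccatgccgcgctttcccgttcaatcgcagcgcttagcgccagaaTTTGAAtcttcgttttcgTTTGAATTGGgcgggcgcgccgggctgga
CENPA, chr2:26785906-26786055, plus strand: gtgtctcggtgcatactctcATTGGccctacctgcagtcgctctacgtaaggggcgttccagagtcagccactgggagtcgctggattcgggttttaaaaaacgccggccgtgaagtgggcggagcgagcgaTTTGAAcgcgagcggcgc
CCNB2 has its CHR word at position -29, counted from the start to the first letter, downstream of CCAAT at -120, -87 and -54. CDC20 has one at -65, between CCAAT at -100 and -55. In ANLN the word stands on both strands side by side, at -26 and -20, with no CCAAT in the stretch. In MKI67 the word at -29 runs into a reverse CCAAT at -24. CENPA, which went the other way, has a CHR word at -18 as well.

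**Figure D4:**
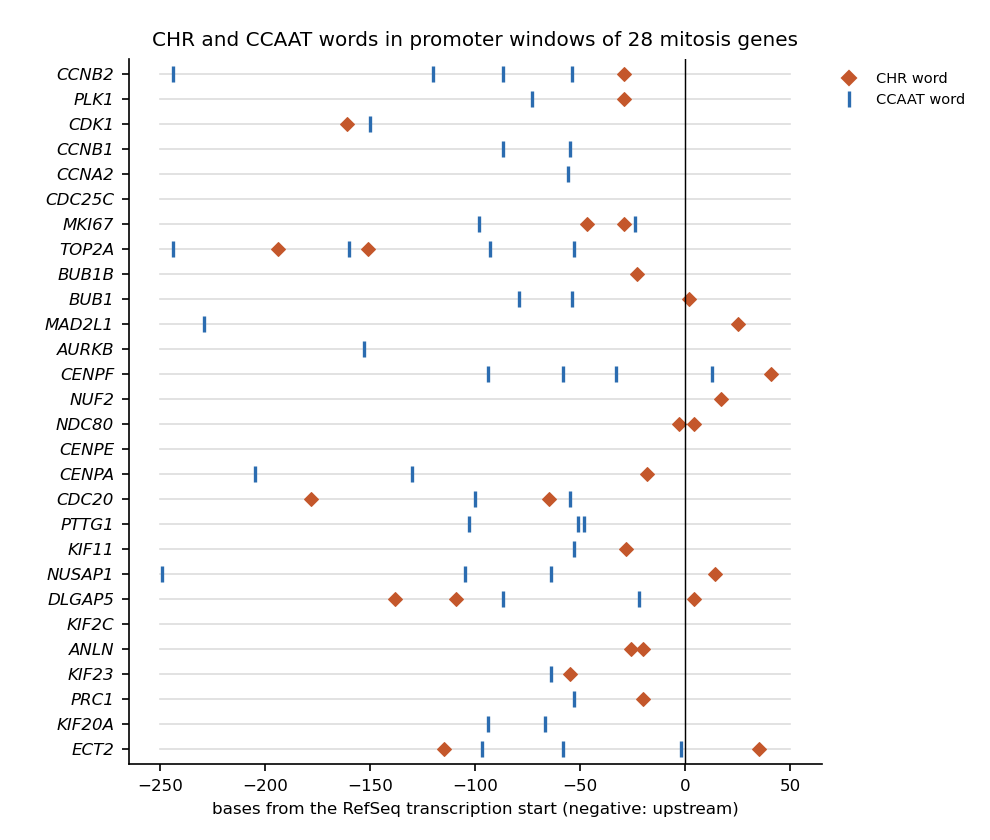
Positions of CHR words (diamonds) and CCAAT words (bars) in the promoter windows of 28 mitosis genes, in bases from the RefSeq start, negative upstream. In 10 genes a CHR word lies within the 60 bases upstream of the start, and in 17 a CCAAT lies between -110 and -40.

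Other genes of cell division were read from 8 lists by function, with 172 genes on the array. With shLSD1 #1, 42 of them rose (24.4%, against 7.85% of all clusters and 15.8% of the bright ones). Falls numbered 11 (6.40%, against 7.94% and 15.9%). With shLSD1 #2, 32 rose (18.6%, against 6.56% and 13.8%) and 9 fell (5.23%, against 6.63% and 13.1%). The bright set was defined by the mitosis genes. These lists also hold dimmer genes, with log2 signals from 2.82 to 15.43. Each list below is read against the same shares. Without control replicate 1 the rises numbered 26 with shLSD1 #1 and 16 with shLSD1 #2. With shLSD1 #2 they numbered 21 without control replicate 2, 18 without shLSD1 #2 replicate 7 and 19 without replicate 8 or 9, and the falls 5 without control replicate 2 or shLSD1 #2 replicate 7 or 8. With the spike-in class blocked, 2 rose with shLSD1 #1, SKA2 and PRIM1, and 1 fell, CDKN1A. The block ended the other 18 shLSD1 #1 calls of genes named below (limma adjusted p from 0.0665 to 0.461). With shLSD1 #2, 19 rose with the block, which there gives the same calls as leaving out replicate 8. In a fit restricted to the high class 13 rose. Of the shLSD1 #2 calls of genes named below, the block ended 7 and the restricted fit 9. Cohesin and condensin, which hold and compact chromatids, had 9 of 21 genes higher with shLSD1 #1 (42.9%) and 5 with shLSD1 #2 (23.8%). None was lower, also at an unadjusted p under 0.05. The condensin and cohesin subunits SMC2 (0.82 and 0.67, limma adjusted p = 0.00132 and 0.0044) and SMC1A (0.75 and 0.63, 0.00557 and 0.0152) had the highest rises of that list. The shLSD1 #2 call of SMC1A was lost without control replicate 2 (0.0616) or shLSD1 #2 replicate 8 (0.0521).

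Kinetochore and centromere genes outside the 35 went both ways, with 8 of 30 higher and 2 lower with shLSD1 #1, and 6 higher and 1 lower with shLSD1 #2. SKA2, which helps kinetochores follow microtubules, rose by 1.72 and 1.53 on the log2 scale (limma adjusted p = 3.34e-05 and 5.92e-05). CENPH, of the inner kinetochore, rose by 0.95 and 0.81 (0.00162 and 0.00417). Its neighbour in that network, CENPQ, fell, with log2 changes of -1.61 and -1.44 (0.000228 and 0.000455), with 2 of 3 arrays of each hairpin above the negative controls. CENPK had log2 changes of -0.44 and -0.32 that did not pass (0.0503 and 0.158), and it fell by 0.38 for the mean of both hairpins (0.0456). That fall was lost without any 1 of the 9 arrays except shLSD1 #1 replicate 5 (0.0558 to 0.1725).

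Kinesins, spindle and cytokinesis genes had 5 of 24 higher with shLSD1 #1 (20.8%) and 3 with shLSD1 #2 (12.5%, below the 13.8% of bright clusters). INCENP, the scaffold of the passenger complex (0.66 and 0.57, limma adjusted p = 0.0237 and 0.0479), and GTSE1, a microtubule-binding protein (0.67 and 0.64, 0.0183 and 0.0244), were among them. The INCENP call with shLSD1 #1 was lost without control replicate 1 (0.0828) or shLSD1 #1 replicate 4 (0.0594) or 5 (0.0719), and with shLSD1 #2 without any 1 of the 9 arrays except shLSD1 #1 replicate 5 (0.0521 to 0.1515). The GTSE1 call was lost with shLSD1 #1 without control replicate 1 (0.0678) or shLSD1 #1 replicate 5 (0.0565) or 6 (0.0506), and with shLSD1 #2 without control replicate 1 (0.0877) or shLSD1 #2 replicate 7 (0.0729) or 9 (0.0762).

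The anaphase-promoting complex had 1 of 17 genes higher (5.88%) and 1 lower (5.88%) with each hairpin, shares below those of all clusters. Its subunit CDC27 fell, with log2 changes of -0.86 and -0.82 (limma adjusted p = 0.00667 and 0.0094), and its inhibitor FBXO5 rose by 0.67 (0.00613) with shLSD1 #1, with 0.43 (0.0503) for shLSD1 #2. ANAPC13, a small subunit, changed by 0.35 (0.158) and rose by 0.55 (0.0427), a call lost without any 1 of the control and shLSD1 #2 arrays or shLSD1 #1 replicate 6 (0.0563 to 0.1355).

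Kinases and phosphatases of mitotic entry outside the 35 had 5 of 21 higher (23.8%) and 1 lower (4.76%) with each hairpin. WEE1, which holds CDK1 inactive, rose by 0.63 and 0.51 (limma adjusted p = 0.0083 and 0.0263), the second lost without control replicate 2 (0.0938) or shLSD1 #2 replicate 7 (0.0676) or 9 (0.0805). CDC25A, which counters WEE1, was below the negative controls on all 3 control arrays and at least 1.61-fold and 1.401-fold higher with the hairpins (limma adjusted p = 0.00127 and 0.0033). ENSA, which restrains a phosphatase that opposes CDK1, fell by 0.67 (0.0119) with shLSD1 #1, with -0.45 (0.0707) for shLSD1 #2. CDK7, the kinase that activates CDK1, had -0.36 (0.0504) and fell by 0.41 (0.0363), a call lost without any 1 control array, shLSD1 #1 replicate 4 or shLSD1 #2 replicate 7 or 8 (0.0538 to 0.125).

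DREAM, MuvB and E2F genes went both ways. With shLSD1 #1, 3 of 19 were higher (15.8%) and 3 lower (15.8%), and with shLSD1 #2, 2 (10.5%) and 2 (10.5%). These shares lay above those of all clusters and near or below those of the bright ones. E2F1 rose by 0.80 and 0.87 (limma adjusted p = 0.023 and 0.0179), the first lost without control replicate 1 (0.0818) or 3 (0.0511) and the second without control replicate 1 (0.0682) or shLSD1 #2 replicate 8 (0.050001) or 9 (0.0590). RBBP4, a histone-binding subunit of MuvB, rose by 0.57 (0.0343) and 0.72 (0.0138), the first lost without any 1 control array, shLSD1 #1 replicate 4 or 5 or shLSD1 #2 replicate 7 (0.0512 to 0.1086) and the second without control replicate 1 (0.0546). TFDP1, whose protein pairs with E2F factors, fell, with log2 changes of -0.72 and -0.65 (0.00428 and 0.00829), and RB1, the retinoblastoma protein gene that restrains E2F, fell as well, with -0.59 and -0.51 (0.00783 and 0.0186), the second lost without control replicate 1 (0.0618) or 2 (0.0679) or shLSD1 #2 replicate 7 (0.0573) or 8 (0.0534).

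Genes of the G1 to S transition and DNA replication had 11 of 34 higher with shLSD1 #1 (32.4%) and 10 with shLSD1 #2 (29.4%). With each hairpin 3 were lower (8.82%). The primase gene PRIM1 rose by 1.22 and 1.29 (limma adjusted p = 0.00017 and 0.000127) and the cyclin D3 gene CCND3 fell, with log2 changes of -0.85 and -0.95 (0.000532 and 0.000283). CDK6, a partner of D cyclins, rose by 1.52 and 1.55 (limma adjusted p = 0.00336 and 0.0034), and its control signal was above background on 2 of 3 arrays. CDK2, which drives S phase, fell, with -0.76 and -0.47 (0.00252 and 0.0302), the second lost without any 1 control or shLSD1 #2 array (0.0616 to 0.0921). Of 6 CDK inhibitors, CDKN1A, which encodes p21, fell, with log2 changes of -1.86 and -1.95 (limma adjusted p = 4.47e-05 and 3.56e-05), and CDKN2A and CDKN2B were below the negative controls on all 9 arrays. No CDK inhibitor rose by limma, and at an unadjusted p under 0.05 there was 1 higher with shLSD1 #1 and 0 with shLSD1 #2.

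**Figure D5:**
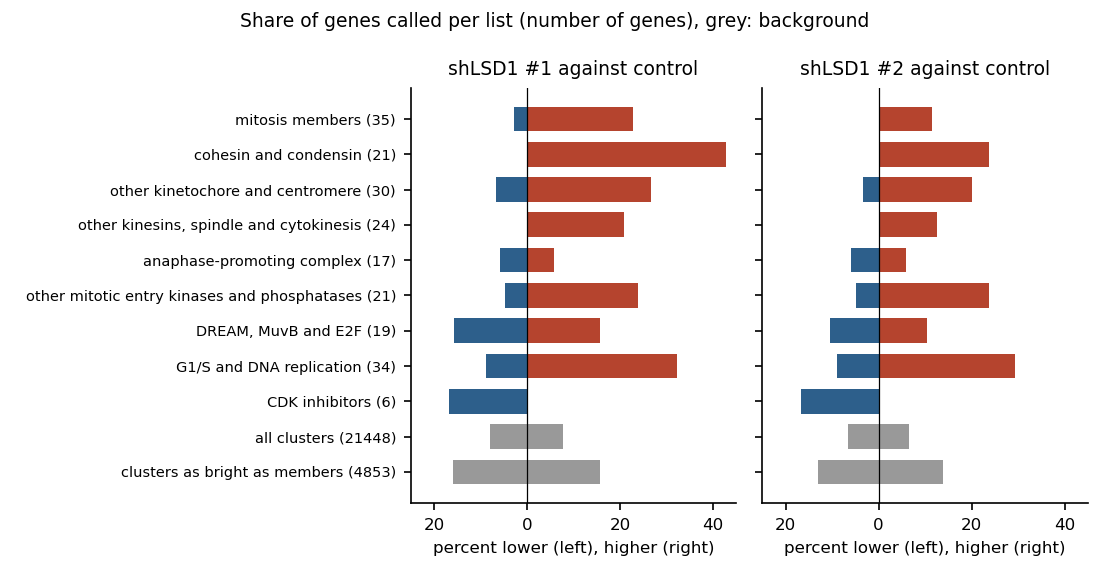
Percent of genes called lower (left) or higher (right) in the mitosis genes and the 8 other lists, with the number of genes in parentheses, for each hairpin against control; grey bars give all clusters and the bright clusters. Cohesin and condensin have the highest share called higher with shLSD1 #1, at 42.9%.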

How the data were processed

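The deposited values are log2 signal intensities per transcript cluster that the authors computed in Affymetrix Expression Console 1.4 with the RMA method, per the submitters' processing notes, from 100 ng of total RNA per array, per the labels' protocols. Options and library files were not given in the sources used here, and base 2, which RMA uses by default, was assumed for the logarithm. RMA sets all arrays to 1 distribution, so a shift shared by most genes would not show. Of 24351 probe sets, 2903 controls were set aside, and 21448 clusters were tested without a filter on signal. A total of 17709 clusters carried 1 symbol and 3739 none, and no mitosis gene had several. All 35 gene IDs matched the RefSeq table of GRCh38.p14.

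The test was limma's lmFit and eBayes (limma 3.58.1, R 4.3.3) on all 9 arrays as 3 groups, with a prior without trend and two-sided p-values adjusted by Benjamini-Hochberg over 21448 clusters at 0.05. The procedure was tested on simulated data. An array counted a gene as above background past the 95th percentile of 612 negative control probe sets. Where all 3 arrays of a group lay below it, the fold is a lower bound. The number of arrays limits the precision.

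Values on every array are given for mitosis genes called with either hairpin or their mean, and for CCNB1, CDK1, PLK1, AURKA, AURKB, BUB3, TOP2A, MKI67 and FOXM1. UBE2C was added after its values were seen. Of each other list, up to 4 genes called for the mean of both hairpins are named, the 2 highest and 2 lowest, and CDKN1A in any case. The mitosis genes, the 8 other lists, the markers and the tests were chosen with earlier results of these data known. Alternatives were cyclic loess, a repeated quantile normalization or subtraction of array medians, array weights, a prior with trend and robust estimation, leaving out the third of clusters that was dimmest, fitting only the groups compared, a block for the spike-in class, a fit restricted to its high class, and leaving out each array in turn. Of the genes in the other lists and markers, 10 had no named cluster and were not analysed here. Plots were drawn with matplotlib 3.10.9.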

Additional observations from a re-analysis of the deposited data

How the results depend on the processing

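No member or named gene changed direction where it was called. For shLSD1 #1 the number of mitosis genes that rose, 8, became 14 with a trended robust prior and 0 with a block for the spike-in class, and the number that fell, 1, became 2 after subtraction of array medians, 3 without the third of clusters that was dimmest, 3 with the trended robust prior and 0 with the block. For shLSD1 #2 the number that rose, 4, became 8 without the third of clusters that was dimmest, 12 with the trended robust prior and 0 in a fit restricted to the high spike-in class, and the number that fell, 0, became 1 with either of the first 2. For the mean of both hairpins the number that rose, 10, became 1 with the block, and the number that fell, 2, became 1 after a repeated quantile normalization and 0 with the block. In the 8 other lists, the number that rose with shLSD1 #1, 42, became 2 with the block, and the number that fell, 11, became 17 with the trended robust prior and 1 with the block. With shLSD1 #2 the number that rose there, 32, became 19 with the block and 13 in a fit restricted to the high spike-in class, and the number that fell, 9, became 5 and 4. Fewer clusters enter the adjustment when dim ones are left out, and fewer arrays enter the restricted fit, while the cause of the other changes was not tested.

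Leaving out 1 array at a time, the rises of mitosis genes numbered 5 to 7 with shLSD1 #1, 1 to 4 with shLSD1 #2 and 5 to 9 for their mean, and the falls 0 to 1, 0 to 0 and 0 to 2. Between the hairpins 0 to 0 differed. The median change lay between 0.15 and 0.23 with shLSD1 #1 and between 0.14 and 0.19 with shLSD1 #2. In the other lists the rises numbered 26 to 40 and 16 to 32, and the falls 9 to 11 and 5 to 9. Over the log2 changes of the 35 mitosis genes and 24 named genes of the other lists, across the alternatives, 3318 values stayed on their side of the threshold, 67 passed it newly and 219 no longer did. The 3318 include 595 values between the hairpins, where no gene was called, and those of other uncalled genes. Such values cannot lose a call, so these counts do not give the share of calls that held.

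No paired analysis was possible because the groups share no replicate numbers. A fit restricted to that class exists for shLSD1 #2 alone, since shLSD1 #1 has no such array, and a choice of the dimmer cluster could not give a value because no mitosis gene has several. The mean of both hairpins has no fit of only the groups compared, since it uses all 3. The 3 arrays in each group limit what can be called, and so does the overlap of the spike-in class with shLSD1 #1.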
